A study of Mus musculus with 2 samples.

Results

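The transcripts described here encode the splicing machinery, the hnRNP proteins and the RNA helicases, and they were read out by how much of each was recovered with the heterochromatin protein HP1 alpha. Members were taken by symbol from the deposited table, by the prefixes Srsf, Srrm, Sf3, Sf1, U2af, Snrnp, Snrp, Hnrnp, Prpf, Ddx, Dhx, Rbm, Rbfox, Ptbp, Tra2, Luc7, Son and Thoc. The pattern matched 64 symbols, of which 1 was left out by the rule, so that there were 63 members among 3134 listed genes (2.01%). All 63 are protein-coding in the RefSeq annotation, which holds 190 protein-coding genes with such symbols. The rule reads symbols alone, but only genes over the table's limit on counts were listed, and the others were not analysed here.

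The assay was eCLIP, an enhanced form of crosslinking and immunoprecipitation, and the cells were NIH3T3, a long-established line of mouse fibroblasts. Proteins are fixed to nearby RNA with ultraviolet light, the RNA is trimmed by RNase I, and what runs in a membrane region above the protein's band is sequenced. An antibody to HP1 alpha gave the HP1 alpha library, whereas the input library is labelled as having no antibody, and both came from crosslinked cells grown alike. Each group had 1 library, so no difference could be set against a spread between replicates and no p-value was computed. Every interval below is an exact 95% counting interval and covers counting error only.

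The listed HP1 alpha counts added up to 513965 and the listed input counts to 830031, and the larger of the 2 counts was at least 100 in every row. The table's columns are headed MEF rather than NIH3T3. Of 10 fibroblast markers, 8 were listed, with 6193 HP1 alpha and 12492 input counts in all, while Thy1 and Pdgfra were not listed. None of the immune, epithelial or endothelial markers was listed (0 of each set). In bulk libraries, fewer cells with a transcript and less of it per cell cannot be told apart.

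Introns are removed by the spliceosome, which is assembled on each intron from small nuclear ribonucleoproteins (snRNPs). The U1 snRNP reads the start of the intron, SF1 and then the U2 snRNP read the branch point, and the tri-snRNP with its U5 core brings in the catalytic centre. SR proteins bind exons and generally promote their use, hnRNP proteins coat nascent RNA and often oppose it, and helicases of the DEAD and DEAH families drive the rearrangements. Many genes of the SR and hnRNP families control their own output by alternative splicing of their transcripts, and nuclear speckles store much of this machinery. HP1 alpha, which binds methylated histone H3 in heterochromatin, can also bind RNA.

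Most of these transcripts took a smaller share of the HP1 alpha library than of the input, as did most listed genes. Together they held 8250 HP1 alpha and 17184 input counts, or 1.61% (1.57 to 1.64) of the HP1 alpha library against 2.07% (2.04 to 2.10) of the input. The ratio of these shares, HP1 alpha over input, was 0.775 (0.755 to 0.796). Ratios of single members ran between 0.488 for Srsf5 and 1.61 for Rbm4, with a median of 0.759, and 5 of the 63 were above 1 (background over all listed genes 30.9%). In the authors' deposited table, the fold was likewise above 1 for 5 of them (background 34.1%). The median log2 ratio was -0.39 over the members and -0.20 over the other 3071 listed genes, a difference of -0.19 that a change of library scaling leaves as it is.

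The interval lay below 1 for 39 of the 63 members (61.9%), against a background of 32.6% over all listed genes. It lay above 1 for 2 members, Rbm4 and Ddx60, against a background of 15.4%. At a distance of 1.5-fold or more with an interval that excludes 1, 18 members were lower (background 12.3%) and 1 was higher (background 7.63%). At 2-fold, 0 members were higher (background 2.36%) and only Srsf5 was lower (background 0.83%). With TMM factors, which raise every log2 ratio by 0.20, the interval lay below 1 for 21 members (background 13.7%) and above 1 for 3 (background 23.3%). With DESeq2 factors, a shift of 0.21, these numbers were 20 (background 12.4%) and 4 (background 23.9%).

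The listing limit touches some of these values. No member had fewer than 100 counts in the input, and 33 had fewer than 100 in the HP1 alpha library. For the 12 members with at most 61 counts in the HP1 alpha library, being listed at all required an input count that put the ratio below 1. All 33 were listed through their input count alone, so that the number of intervals below 1 is a description, given beside a background under the same limit. The members' log2 ratios had a standard deviation of 0.31, against a root mean square counting error of 0.18, so that they varied by more than counting error alone gives.

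**Figure D1:**
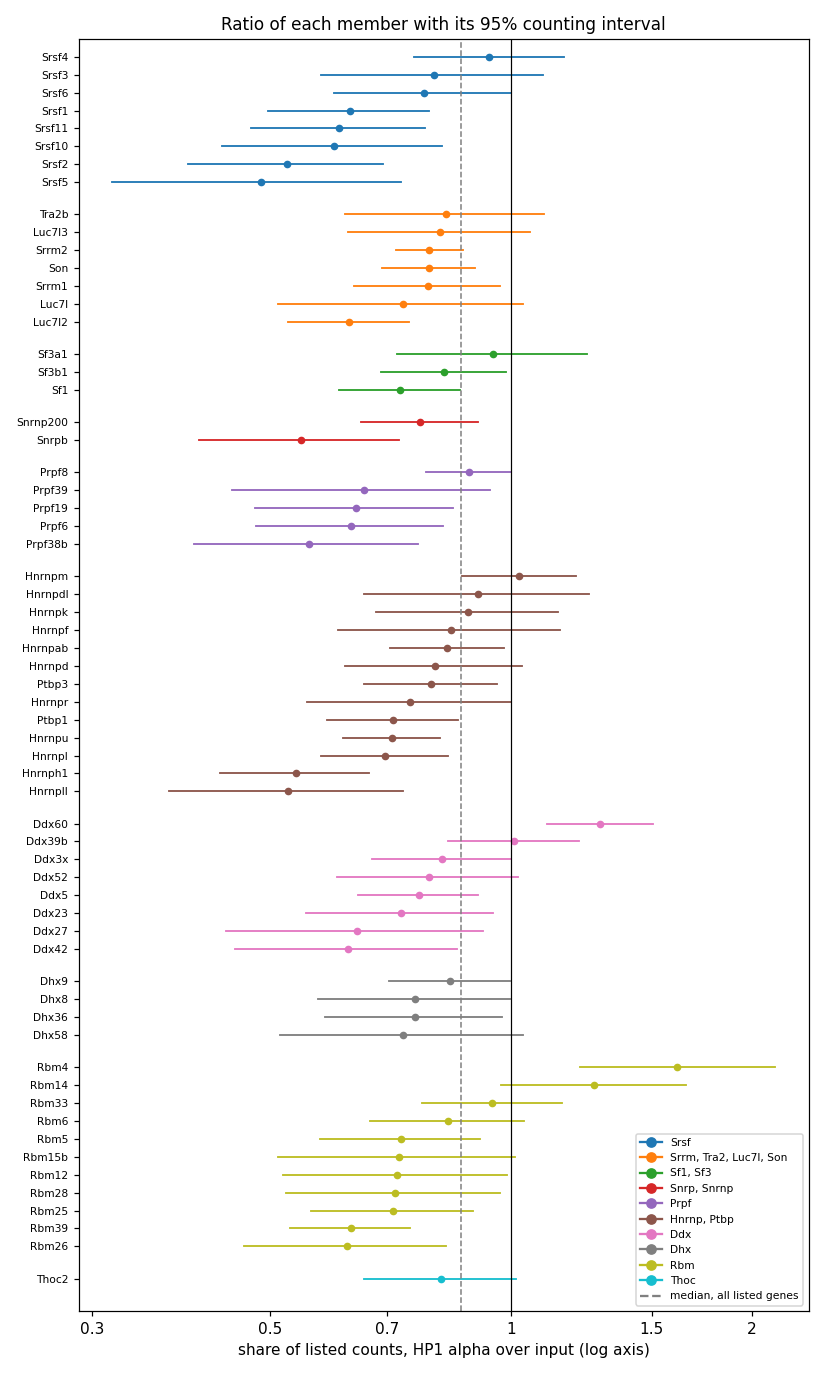
Ratio of the share of listed counts, HP1 alpha over input, for 62 of the 63 members on a log axis, grouped and coloured by role. Points are ratios, bars are 95% counting intervals from 1 library per group, the solid line marks 1 and the dashed line marks the median of all listed genes; 2 intervals lie above 1, those of Ddx60 and Rbm4, and 38 of those drawn lie below.

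**Figure D2:**
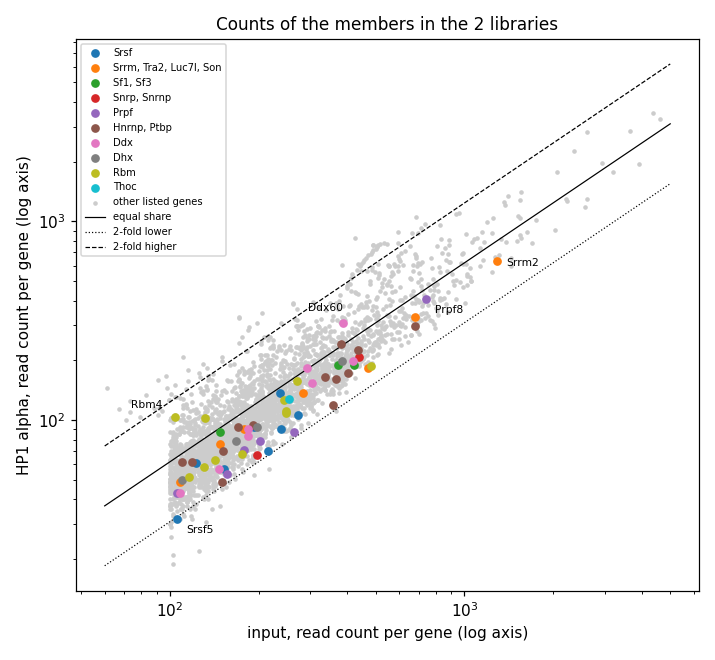
Read counts of the members (coloured by role) and of the other listed genes (grey) in the HP1 alpha library (vertical, log axis) against the input (horizontal, log axis). Lines mark equal shares of the 2 libraries and a 2-fold difference either way; Srsf5 is the only member beyond 2-fold, and most members lie under the line of equal shares.

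Promoter windows of the members at both ends of the order are given here to show how unlike they are in sequence, with CG dinucleotides in capitals. Each is a window of 300 bases that contains a RefSeq transcription start near its end, in GRCm38.p6. Srsf5 and Srsf2 had the lowest ratios, and Rbm4 and Ddx60 the highest.
Srsf5, chr12:80945249-80945548, plus strand: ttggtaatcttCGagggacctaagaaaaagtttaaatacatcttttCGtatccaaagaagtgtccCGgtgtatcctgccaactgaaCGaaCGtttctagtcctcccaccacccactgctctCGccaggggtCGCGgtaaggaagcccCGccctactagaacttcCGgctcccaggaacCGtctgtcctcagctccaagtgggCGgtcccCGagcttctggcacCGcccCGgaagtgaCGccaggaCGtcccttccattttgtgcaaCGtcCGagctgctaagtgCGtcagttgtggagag
Srsf2, chr11:116853045-116853344, minus strand: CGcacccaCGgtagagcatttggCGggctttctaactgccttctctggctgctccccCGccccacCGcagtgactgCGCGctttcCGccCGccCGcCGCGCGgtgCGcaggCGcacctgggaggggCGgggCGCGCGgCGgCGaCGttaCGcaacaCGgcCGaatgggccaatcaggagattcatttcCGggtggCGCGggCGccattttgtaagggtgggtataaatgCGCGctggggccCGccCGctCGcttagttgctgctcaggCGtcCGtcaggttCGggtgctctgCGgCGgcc
Rbm4, chr19:4793852-4794151, minus strand: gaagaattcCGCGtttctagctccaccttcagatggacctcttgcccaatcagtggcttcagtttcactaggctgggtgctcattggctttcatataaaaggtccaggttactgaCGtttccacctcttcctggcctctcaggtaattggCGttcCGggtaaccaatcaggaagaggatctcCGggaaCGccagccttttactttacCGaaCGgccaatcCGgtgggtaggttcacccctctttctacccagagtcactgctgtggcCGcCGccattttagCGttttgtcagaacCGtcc
Ddx60, chr8:61927837-61928136, plus strand: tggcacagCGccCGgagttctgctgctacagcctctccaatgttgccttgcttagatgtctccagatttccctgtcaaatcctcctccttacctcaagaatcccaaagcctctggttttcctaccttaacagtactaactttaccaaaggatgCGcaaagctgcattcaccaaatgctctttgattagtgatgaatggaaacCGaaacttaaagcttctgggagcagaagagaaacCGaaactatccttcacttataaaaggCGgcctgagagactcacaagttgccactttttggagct
The Srsf2 window holds 39 CG dinucleotides and the Srsf5 window 20, whereas the Rbm4 window holds 14 and the Ddx60 window 6. Rbm4 has 2 overlapping windows, of which 1 is shown. Over the 56 members with a window the median was 25 CG dinucleotides, against 26 in 2494 other listed genes, taking the richest window of each gene. Across these 56 members the CG number and the log2 ratio had a Spearman's rho of 0.13, a description across genes of the same 2 libraries, so that the contrast between these 4 windows does not extend to the members as a whole.

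The SR proteins had the lowest median of the groups with more than 1 member. All 8 listed Srsf genes, of 11 in RefSeq, had ratios below 1, though the listing limit fixed this for Srsf3, Srsf5 and Srsf10. Ratios above 1 were thus held by 0 of the 8 Srsf genes, against a background of 30.9%. Their median log2 ratio was -0.69, and 5 of the 8 had intervals below 1 (background 32.6%). Srsf5 had 32 HP1 alpha and 106 input counts, a ratio of 0.488 (0.318 to 0.730). This is the lowest value among the members, and it rests on the smallest HP1 alpha count of them all, 1 of the 12 for which the listing limit fixed a ratio below 1. Its ratio was within 2-fold of the input under TMM factors, DESeq2 factors and the authors' constant. Srsf2, also called SC35, had 70 HP1 alpha and 215 input counts, a ratio of 0.526 (0.396 to 0.692). Srsf1, the founding SR protein, had 106 and 272 counts in the same order, a ratio of 0.629 (0.498 to 0.791). The ratio was 0.602 (0.436 to 0.821) for Srsf10, which represses splicing when it is dephosphorylated, and 0.611 (0.474 to 0.781) for Srsf11. These 5 genes were lower by 1.5-fold or more.

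The remaining 3 SR genes were closer to the input. Srsf4 had 138 HP1 alpha and 237 input counts, a ratio of 0.940 (0.757 to 1.16). Srsf3, the smallest of the SR proteins, had 61 against 123 counts, for a ratio of 0.801 (0.579 to 1.10), and Srsf6 had 93 against 193 counts, for a ratio of 0.778 (0.601 to 1.002). Srsf4, Srsf5 and Srsf6 are close paralogues that carry a pair of RNA recognition motifs. The ratio of Srsf5 was 0.519 (0.320 to 0.825) of that of Srsf4 and 0.627 (0.379 to 1.02) of that of Srsf6, so that its difference from Srsf4 exceeded counting error and that from Srsf6 did not.

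SR-related factors had a narrow range, with a standard deviation of 0.14 in log2 ratio, below the counting error of 0.18 over all members. Srrm2, a large scaffold protein of nuclear speckles, was the most deeply counted member, with 630 HP1 alpha and 1286 input counts and a ratio of 0.791 (0.718 to 0.871). Son, its partner scaffold in speckles, had 332 against 679 counts, for a ratio of 0.790 (0.690 to 0.902). Srrm1, an SR-related protein that joins the exon junction complex, had 138 against 283 counts, for a ratio of 0.788 (0.638 to 0.969). All 3 lay below the input, and their ratios were nearly equal. Tra2b, an activator of exons related to the SR proteins, had 76 against 148 counts, for a ratio of 0.829 (0.620 to 1.10). The Luc7l genes encode U1 snRNP-associated proteins related to yeast Luc7, and all 3 of them were listed. Luc7l2 had 183 HP1 alpha and 471 input counts, a ratio of 0.627 (0.526 to 0.746). Luc7l3 and Luc7l had ratios of 0.817 (0.627 to 1.06) and 0.733 (0.512 to 1.04), and the listing limit fixed that of Luc7l below 1. The ratio of Luc7l2 was 0.857 (0.579 to 1.28) of that of Luc7l, a difference within counting error.

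Factors of the branch point and the U2 snRNP were represented by 3 genes, and none of the 3 U2af genes was listed. Sf1, the branch point binding protein, had 190 HP1 alpha and 422 input counts, a ratio of 0.727 (0.609 to 0.865). Sf3b1, the U2 subunit that clamps the branch point, had 190 against 372 counts, for a ratio of 0.825 (0.689 to 0.985). Sf3a1, another U2 subunit, had 87 against 148 counts, for a ratio of 0.949 (0.720 to 1.25). Sf1 and Sf3b1 were lower in the HP1 alpha library, and the interval of Sf3a1 included 1. The ratio of Sf3b1 was 0.869 (0.626 to 1.21) of that of Sf3a1.

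Few snRNP protein genes reached the table. Only 2 of 19 RefSeq genes with the prefixes Snrp and Snrnp were listed, and both had intervals below 1 (background 32.6%). Snrpb, a core Sm protein shared by the spliceosomal snRNPs, had 67 HP1 alpha and 198 input counts, a ratio of 0.546 (0.408 to 0.724). Snrnp200, the helicase that unwinds U4 from U6, had 209 against 438 counts, for a ratio of 0.771 (0.650 to 0.911).

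The pre-mRNA processing factors resembled the SR proteins in level, with a median log2 ratio of -0.65 over 6 genes and 5 intervals below 1 (background 32.6%). The listing limit fixed a ratio below 1 for Prpf38b and Prpf39. Prpf38b had 54 HP1 alpha and 156 input counts, a ratio of 0.559 (0.402 to 0.766). Prpf6, which bridges the parts of the tri-snRNP, had 79 against 202 counts, for a ratio of 0.632 (0.481 to 0.823). Both genes were well below the input. Prpf19, the ubiquitin ligase of the complex that activates the spliceosome, had 0.641 (0.480 to 0.848), and Prpf39, a U1-associated protein, had 0.655 (0.449 to 0.942). Prpf8, the protein at the heart of the U5 snRNP, was closest to the input, with 406 HP1 alpha and 740 input counts and a ratio of 0.886 (0.783 to 1.001). Within the U5 and tri-snRNP partners, the ratio of Prpf6 was 0.713 (0.528 to 0.957) of that of Prpf8, and that of Snrnp200 was 0.870 (0.705 to 1.07).

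The hnRNP and PTB proteins spanned a wider range. Of 13 listed genes, 7 had intervals below 1 (background 32.6%) and 0 had intervals above 1 (background 15.4%), with a median log2 ratio of -0.33. Hnrnph1, which binds runs of G, had 119 HP1 alpha and 357 input counts, a ratio of 0.538 (0.434 to 0.664). Hnrnpll, known for its control of Ptprc splicing in lymphocytes, had 49 against 150 counts, for a ratio of 0.528 (0.374 to 0.733). Both were lower by more than 1.5-fold, though the listing limit fixed a ratio below 1 for Hnrnpll. Hnrnpl, which binds CA repeats, had 173 against 401 counts, for a ratio of 0.697 (0.580 to 0.835). Hnrnpu, also called scaffold attachment factor A, binds chromatin and nuclear RNA. It had 299 HP1 alpha and 680 input counts, a ratio of 0.710 (0.618 to 0.815). Hnrnpab had 225 against 436 counts, for a ratio of 0.833 (0.706 to 0.981). Ptbp1 and Ptbp3, which bind pyrimidine tracts, had ratios of 0.713 (0.589 to 0.860) and 0.795 (0.656 to 0.961).

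At the upper end of this group, Hnrnpm had 241 HP1 alpha and 380 input counts, a ratio of 1.02 (0.868 to 1.21). Hnrnpdl had 62 against 110 counts, for a ratio of 0.910 (0.656 to 1.25), and Hnrnpk, which binds C-rich RNA, had 93 against 170 counts, for a ratio of 0.883 (0.679 to 1.14). These 3 intervals included 1. The ratio of Hnrnph1 was 0.640 (0.435 to 0.946) of that of its paralogue Hnrnpf, which had 0.841 (0.609 to 1.15). The ratio of Hnrnpll was 0.757 (0.512 to 1.11) of that of Hnrnpl, and that of Ptbp3 was 1.12 (0.851 to 1.46) times that of Ptbp1, both within counting error. Over all families, 17 such pairs were compared, with intervals not adjusted for their number, and 4 excluded 1. The pairs were chosen after the counts were seen.

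DEAD-box helicases held 1 of the 2 members with an interval above 1. Ddx60, an interferon-induced antiviral helicase, had 309 HP1 alpha and 386 input counts, a ratio of 1.29 (1.11 to 1.51). The gene, at positions 61928073 to 62037704 of chromosome 8, is among the longest members. Ddx39b, the helicase UAP56 that acts in early spliceosome assembly and in mRNA export, had 183 against 293 counts, for a ratio of 1.01 (0.834 to 1.22). Its span contains 2 small nucleolar RNA genes and 2 microRNA genes, and reads from these could not be told apart from its own. Ddx5, a helicase that also acts as a transcriptional coregulator, had 198 against 417 counts, for a ratio of 0.767 (0.644 to 0.910). Ddx3x, which acts in translation initiation, had 154 against 303 counts, for a ratio of 0.821 (0.672 to 0.9998).

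The lowest DEAD-box genes were Ddx42, a U2-associated helicase, with 57 HP1 alpha and 147 input counts and a ratio of 0.626 (0.453 to 0.856), and Ddx27, a helicase of ribosome assembly, with 43 and 108 counts and a ratio of 0.643 (0.441 to 0.924). Ddx23, the U5 helicase, had 83 against 184 counts, for a ratio of 0.728 (0.555 to 0.949). In all, 5 of 8 DEAD-box genes had intervals below 1 (background 32.6%), though the listing limit fixed a ratio below 1 for Ddx42 and Ddx27. The 4 DEAH-box genes had the closest ratios, between 0.734 and 0.839, with a standard deviation of 0.081 in log2 ratio. This is below the root mean square counting error of 0.18 over all members, so that their closeness does not show them to be alike. Dhx9, also known as RNA helicase A, had 199 against 383 counts, for a ratio of 0.839 (0.703 to 0.998). Dhx36, which unwinds G-quadruplexes, and Dhx8, which releases the spliced mRNA, each had a ratio of 0.759, with intervals of 0.586 to 0.975 and 0.574 to 0.998. Dhx58, an interferon-induced helicase of antiviral sensing like Ddx60, had 50 against 110 counts, for a ratio of 0.734 (0.515 to 1.03). The ratio of Ddx60 was 1.76 (1.21 to 2.596) times that of Dhx58. Dhx58, however, is 1 of the 12 members for which the listing limit fixed a ratio below 1. It spans 9.39 kb and Ddx60 109.6 kb, and relative to genes of like span, a comparison set out below, their ratios were 1.04 and 1.30.

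The RNA binding motif genes held the other member above 1. Rbm4, a splicing and translation regulator, had 104 HP1 alpha and 104 input counts, a ratio of 1.61 (1.22 to 2.14). Its neighbour Rbm14, a protein needed for paraspeckles, had 103 against 131 counts, for a ratio of 1.27 (0.971 to 1.66). Both lie on chromosome 19, Rbm4 from 4784293 to 4794009 and Rbm14 from 4800566 to 4811634, and both lie inside a further listed gene, Gm21992, from 4742913 to 4811634. Gm21992 had 237 HP1 alpha and 282 input counts and a ratio of 1.36 (1.14 to 1.62). Rbm4 and Rbm14 add up to 207 and 235 counts, fewer than those of Gm21992 in both libraries. The 3 values may therefore rest on shared reads, and their separate contributions cannot be told apart. Without the 4 members that overlap another listed gene, the interval lay above 1 for Ddx60 alone.

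The other RNA binding motif genes were lower or near the input. Rbm39, a factor related to the U2AF proteins, had 188 HP1 alpha and 481 input counts, a ratio of 0.631 (0.530 to 0.749). Rbm26 had 68 against 176 counts, for a ratio of 0.624 (0.465 to 0.830). Rbm25, which binds exonic elements and associates with U1, had 109 against 247 counts, for a ratio of 0.713 (0.564 to 0.896). Rbm33 had 158 against 269 counts, for a ratio of 0.949 (0.774 to 1.16), with an interval on both sides of 1. The neighbouring paralogues Rbm6 and Rbm5, which regulate alternative splicing, had ratios of 0.834 (0.667 to 1.04) and 0.729 (0.578 to 0.915), and did not differ beyond counting error (1.14, 0.829 to 1.58). Thoc2, the scaffold subunit of the THO export complex and the only listed member of that complex, had 128 against 253 counts, for a ratio of 0.817 (0.655 to 1.01).

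In this table the ratio is larger in longer genes, and the members were shorter than other genes. Gene span here runs over introns and was taken from RefSeq, with a median of 23.2 kb over the members and 49.1 kb over the other genes. Each log2 ratio was therefore also taken relative to the median of the 200 listed genes nearest in span. On that scale the members' median was -0.068, and 42 of the 63 lay below genes of like span (background 49.3%). The interval lay below that median for 10 members (background 11.8%) and above it for 5 (background 15.4%). The distance of the members' median log2 ratio was thus -0.19 from all other listed genes and -0.068 from genes of like span.

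Among the members themselves the ratio followed span only loosely. Across the 63 members, Spearman's rho between span and log2 ratio was 0.11, and it was 0.17 over the 59 that overlap no listed gene. Across the 2322 other listed genes within the same range of spans, 3.78 to 116.9 kb, rho was 0.42. These are descriptions across genes that share 2 libraries. The members of up to 10 kb had a median log2 ratio of -0.45, equal to the -0.45 of other genes of that span. The 12 members above 40 kb had a median of -0.40, against -0.017 for 1717 other genes above 40 kb, which reach greater lengths. Relative to genes of like span, 11 of these 12 lay below, with a median of -0.24, against 48.6% of the 1717. Of the 12, 5 had intervals below, against 15.3% of the 1717. The exception was Ddx60.

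**Figure D3:**
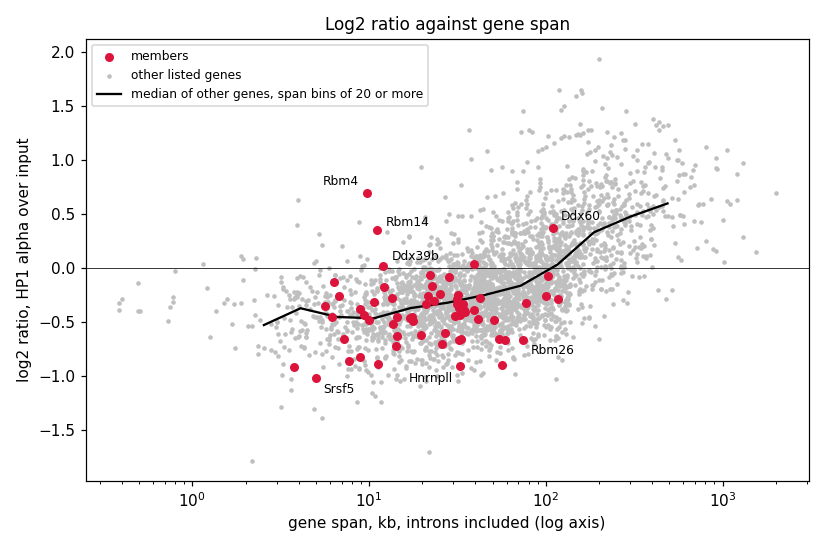
Log2 ratio, HP1 alpha over input, against gene span in kb on a log axis, for the members (red) and the other listed genes (grey). The black line joins medians of the other genes in bins of span; above 10 kb it climbs with span, whereas the members above 40 kb have a median of -0.40 and all but Ddx60 of these 12 lie below genes of like span.

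Several long members lay far below genes of like span. Rbm26 spans 74.3 kb, and its log2 ratio relative to them was -0.54. Luc7l2 and Prpf6, of 58.6 and 54.3 kb, had -0.47 and -0.41. Of shorter genes, Hnrnpll had -0.58, Srsf5 had -0.56, Srsf2 had -0.47 and Hnrnph1 had -0.42. The interval of Srsf5 on this scale included the median of its neighbours in span. Hnrnpll and Srsf5 are among the members for which the listing limit fixed a ratio below 1. At the other end stood Rbm4 with 1.18, above all 200 genes of like span, Rbm14 with 0.81, Ddx39b with 0.50, Ddx60 with 0.38 and Hnrnpdl with 0.33. Only Rbm4 was more than 2-fold from genes of like span.

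By role, the SR proteins had a median of -0.25 relative to genes of like span. Of these 8 genes, 5 lay below 0 (background 49.3%), with 2 intervals below (background 11.8%), and Srsf3, Srsf4 and Srsf6 lay above 0. The pre-mRNA processing factors had a median of -0.30, with 5 of 6 below 0 (background 49.3%) and 2 intervals below, and Prpf8 above 0. The RNA binding motif genes had a median of -0.12, with 9 of 11 below 0 (background 49.3%). Of their intervals, 2 lay below (background 11.8%) and 2 above (background 15.4%). Both snRNP protein genes lay below 0, with a median of -0.21. The medians of the SR-related factors (-0.0098), the DEAH-box genes (-0.0013) and the hnRNP and PTB genes (-0.020) were near 0, with members on both sides. Among the hnRNP and PTB genes, Hnrnpll and Hnrnph1 had intervals below and Hnrnpm had its interval above, and among the SR-related factors Luc7l2 had its interval below. The DEAD-box genes, whose median log2 ratio was -0.36, had a median of 0.057 on this scale. Ddx3x, Ddx5, Dhx9 and Hnrnpab, all with intervals below 1, had 1.12, 1.08, 1.06 and 1.14 times the ratio of genes of like span. On this scale all of their intervals included 1, so that they did not differ from genes of like span beyond counting error.

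**Figure D4:**
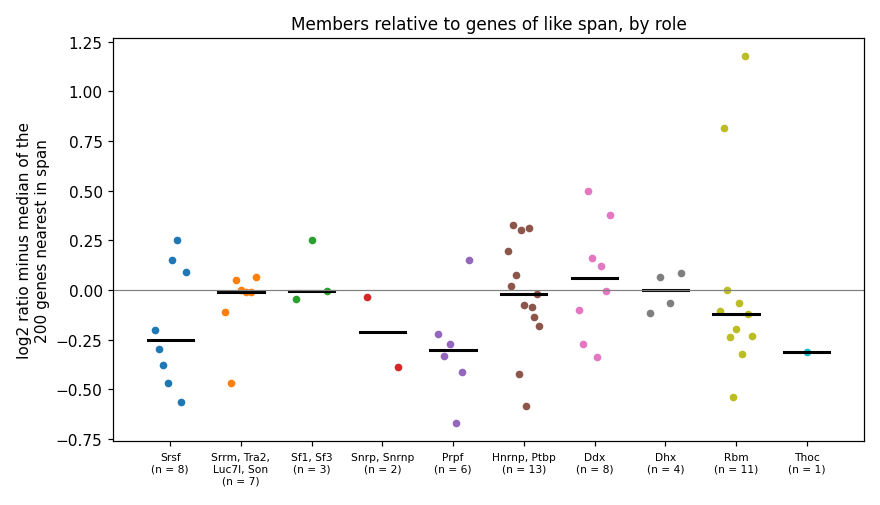
Log2 ratio of each member minus the median of the 200 listed genes nearest in span, by role group, with black bars for group medians. Of the Srsf genes 5 of 8 lie below 0 and of the Prpf genes 5 of 6 (background over all listed genes 49.3%). Their medians are -0.25 and -0.30, and the highest points are Rbm4 (1.18) and Rbm14 (0.81), which lie within 1 listed gene.

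SR genes and several hnRNP genes carry exons or introns that lead their own transcripts to decay, a known means of autoregulation. Of a list of such genes, 12 were members: the 8 Srsf genes described above, with Tra2b, Ptbp1, Snrpb and Hnrnpdl. These last had log2 ratios of -0.27, -0.49, -0.86 and -0.13 in that order. The 12 had a median log2 ratio of -0.57, and 7 of them had intervals below 1 (background 32.6%). As most of the 12 are Srsf genes, the list is no contrast separate from that group. Outside the list, the 51 other members had a median of -0.39, and 32 of the 51 had intervals below 1. That share was not smaller than the share in the list. The 12 genes were also shorter, with a median span of 8.88 kb against 31.3 kb, and relative to genes of like span their median was -0.11 against -0.068. The part of span in this difference was not tested.

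The rest of the pathway was taken from a list of splicing genes outside the naming pattern, of which 32 were listed. Their median log2 ratio was -0.34, with 15 intervals below 1 (background 32.6%) and 3 above (background 15.4%). The lowest were Sfpq, a paraspeckle and splicing factor, with 145 HP1 alpha and 375 input counts and a ratio of 0.624 (0.512 to 0.758), Nxf1, the mRNA export receptor, with 0.633 (0.474 to 0.838), and Txnl4a, a U5 protein, with 0.636 (0.449 to 0.889). The highest were Celf2 and Celf1, regulators of alternative splicing, and Dyrk1a, a kinase found in nuclear speckles. Celf2 had 107 against 111 counts, for a ratio of 1.56 (1.18 to 2.05), Dyrk1a had 364 and 434 counts and 1.35 (1.18 to 1.56), and Celf1 had 281 and 361 counts and 1.26 (1.07 to 1.47). Celf2 spans 856.6 kb, and relative to genes of like span its log2 ratio was 0.11, while Dyrk1a had 0.38 and Celf1 0.47. Both the members and this list thus lay below all listed genes in their medians, and at -0.068 and -0.081 relative to genes of like span.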

How the data were processed

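The deposited table holds read counts per gene, whole numbers that the authors made for 1 HP1 alpha and 1 input library, and a fold column. Per the submitters' processing notes, STAR 2.6.0c and featureCounts were used with GRCm38. Not given in the sources used here are strand, counting over exons or whole genes, handling of overlapping genes and removal of PCR duplicates. The deposited fold ratio equals the count ratio times 1.66 in every row, a constant that per the file headers stands for total mapped reads. The column headed HP1 was assigned to the antibody library and that headed mock to the library without antibody. The table had 0 further columns of sample values.

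Counts were divided by each library's listed total, which is not a sequencing depth. Intervals are Clopper-Pearson intervals of the split of 2 counts, with a median upper bound 1.66 times the lower among members, and reads may include PCR copies. Intervals for pairs are conditional intervals of the odds ratio. Log2 ratios used a pseudocount of 0.5. A gene was counted past 2-fold or 1.5-fold where its interval also excluded 1. RefSeq spans (GRCm38.p6) matched 3089 genes, 63 members among them, and promoter sequences came from RefSeq. Of the members, 25 share bases with another RefSeq gene on either strand, 18 of them with a protein-coding gene, and near-identical copies such as Rbm4b or Ddx3y could also divert reads. Named genes were all members past 2-fold, every member of the small families, the 3 highest, 3 lowest and 2 most abundant of each larger family, the 5 highest and 5 lowest relative to span, and the 3 highest and 3 lowest of the other splicing genes. One gene that this rule takes is not reported here, though it counts in the totals. Alternatives used TMM factors (edgeR 4.0.16), size factors (DESeq2 1.42.0), the authors' constant, other pseudocounts, minimums and folds. Python 3.11.15 and SciPy 1.17.1 were used. The members, lists and rules were chosen with earlier results of these data known.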

Additional observations from a re-analysis of the deposited data

How the results depend on the processing

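No paired analysis was possible because there is 1 library per group. Each scaling shifts every log2 ratio alike, by 0.20 for TMM, 0.21 for DESeq2 and 0.041 for the authors' constant, which accounts for their effects. The members' median log2 ratio of -0.39 became -0.20, -0.19 and -0.35 under these 3, and -0.068 when set against genes of like span. It was -0.34 without the 12 members whose listing fixes a ratio below 1, an alternative chosen after seeing the data and by the HP1 alpha count itself, so that it is no independent check. The ratio of shares, 0.775 as reported, was 0.889, 0.896 and 0.798 under the 3 scalings. Intervals below 1, 39 as reported (background 32.6%), numbered 21 with TMM (13.7%), 20 with DESeq2 (12.4%) and 10 relative to like span (11.8%). They numbered 10 at a minimum of 400 input counts, which left 11 members, and no background was computed at that minimum. Intervals above 1, 2 as reported (background 15.4%), numbered 4 with DESeq2 (23.9%) and 5 relative to like span (15.4%). They numbered 0 at that minimum and 1 without overlapping genes, again with no background computed. The 1 member lower by 2-fold, Srsf5, passed at 2-fold neither under the 3 scalings (0 each), a pseudocount of 5 (0) nor relative to like span (0), and was not among the members at a minimum of 400 (0) or without the 12 (0), while 18 members passed at 1.5-fold. The number higher by 2-fold, 0 as reported, was 1 at 1.5-fold and 1 relative to like span, Rbm4 in both. Relative to like span, the DEAD-box median turned to 0.057, and the ratios of Ddx3x, Ddx5, Dhx9 and Hnrnpab turned to 1.12, 1.08, 1.06 and 1.14. The intervals of these genes on that scale all included 1. Members near 100 counts have the widest intervals, up to 2.30 times from lower to upper bound, so that 1.5-fold differences there are the least certain.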
